A study of Mus musculus with 6 samples.

Results

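The decay of mRNA after transcription was stopped was followed in mature dendritic cells of Mettl3-/- (KO) mice. The 3 libraries of this course are those labelled KO with 0, 3 or 6 hours of actinomycin D, out of 6 libraries in the series, and each time is represented by 1 library. The other 3 libraries hold the same times of a wild-type (WT) culture and are set beside the KO values below. Both strains were C57BL/6. The KO mice were Mettl3 fl/fl with Cre under the CD11c promoter, which removes an early part of the gene in cells that express CD11c, and the WT mice carried the floxed alleles without Cre. Bone marrow of mice aged 6 weeks was cultured in 10 ng/ml of GM-CSF plus 1 ng/ml of IL-4. CD11c+ cells were taken with magnetic beads and matured with 100 ng/ml LPS for 24 h. Actinomycin D was given 6, 3 or 0 h before the cells were collected. The study's methods do not say whether the times of a course came from a single divided culture. The titles carry D2 for the KO and D3 for the WT libraries, marks whose meaning is not given. The study used 2 pairs of littermates for such courses, and which pair each culture came from is not stated.

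Actinomycin D binds DNA and blocks RNA synthesis, so that the amount of a transcript in the following hours is set mainly by how fast it is degraded. Transcripts of regulators that must be switched on and off quickly usually carry signals for rapid removal of the poly(A) tail, of which AU-rich elements in the 3′ untranslated region (3′ UTR) are the best known, while transcripts for ribosomes, energy metabolism and abundant secreted proteins are usually long-lived. Mettl3 encodes the methyltransferase that places N6-methyladenosine (m6A) on mRNA. Among the readers of this mark, the study describes YTHDF2 as promoting decay and YTHDF1 as promoting translation. In dendritic cells, LPS sets off a burst of such short-lived regulators together with cytokines, chemokines, co-stimulatory molecules and antigen presentation genes.

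The levels are RPKM (reads scaled to transcript length and to the mapped reads of the library), recovered from the deposited values for 23836 genes. Of these, 10474 averaged 1 RPKM or more in the KO libraries and were compared. The depth of the libraries is unknown, and 27 rows whose names had been turned into dates were left out. Summed gene RPKM lay between 634890 and 718505 in the KO libraries, and the 10 most abundant genes took 21.2%, 27.7% and 30.2% of it in order of time. The cells carried the defining transcripts of mature dendritic cells at 0 h, with Ccl22 at 3879 RPKM, Fscn1 at 2584 RPKM, Ccr7 at 1863 RPKM and Zbtb46 at 22.6 RPKM. Itgax, the gene of CD11c, was at 10.0 RPKM at 0 h. Transcripts of macrophages (Adgre1, 224 RPKM) and neutrophils (S100a8, 4991 RPKM) were also present at 0 h. So were Mcpt8, a mast cell and basophil marker (21.4 RPKM), and at low level the T cell transcript Cd3e (3.19 RPKM). The B cell transcript Ms4a1 was at 0.0465 RPKM at 0 h. Mettl3 itself stood at 6.99, 4.83 and 4.06 RPKM at 0, 3 and 6 h in KO cells, against 7.79, 2.68 and 2.59 RPKM in WT cells. These values cover the whole gene, of which the KO allele lacks only a part, and so do not check the labels.

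Synthetic ERCC transcripts had been added in proportion to total RNA, and their RPKM gave the scale on which a loss of mRNA per total RNA can be read. On that scale the median gene in KO cells kept 12.5% of its 0 h amount at 3 h and 15.5% at 6 h, against 19.1% and 8.74% in WT cells. The scaled amount was higher at 6 h than at 3 h for 82.9% of the genes in KO cells, against 0.878% in WT cells. With 1 library each, which of the KO libraries departs cannot be told. Whether the spike-in amounts differed, the libraries of 3 h and 6 h were interchanged or some transcription went on was not tested, and an interchange would turn the sign of every change between 3 h and 6 h given for KO cells. The half-life from both times was 1.38 h for the median gene, with 90% of genes between 0.945 and 2.55 h, but it was 0.997 h from the 3 h library alone and 2.22 h from the 6 h library alone. Half-lives are therefore not used to rank genes here. All results below are log2 changes of RPKM from 0 h from which the change of the median gene was subtracted (-0.93 at 3 h and -1.05 at 6 h before scaling), a quantity that a library factor cannot move.

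A gene was counted as lower where it fell short of the median gene by 2-fold or more at both 3 h and 6 h, and as higher where it exceeded it by as much at both times. By this rule 809 of 10474 genes were lower (7.72%) and 971 were higher (9.27%). The word higher refers to the median gene only. On the spike-in scale without centring, 10118 genes were lower than at 0 h by 2-fold or more at both times and 6 were higher, and on plain RPKM 4509 were lower and 44 higher, so that most genes called higher are genes that lost less than the others. ERCC transcripts of at least 10 RPKM, which do not decay, spread around their own median by 0.22 at 3 h and 0.19 at 6 h (SD of the log2 ratio, n = 47), and 0 of them passed 2-fold. Among the 33 ERCC transcripts under 10 RPKM the spread was 0.91 and 0.87 and 9 passed 2-fold at each time, so single weakly expressed genes are uncertain. The filter keeps a gene by its mean, which removes rapidly lost genes of low starting level (Klf4, at 2.37, 0.360 and 0.176 RPKM, was not tested), and without the filter 1694 genes were lower and 880 higher.

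**Figure D1:**
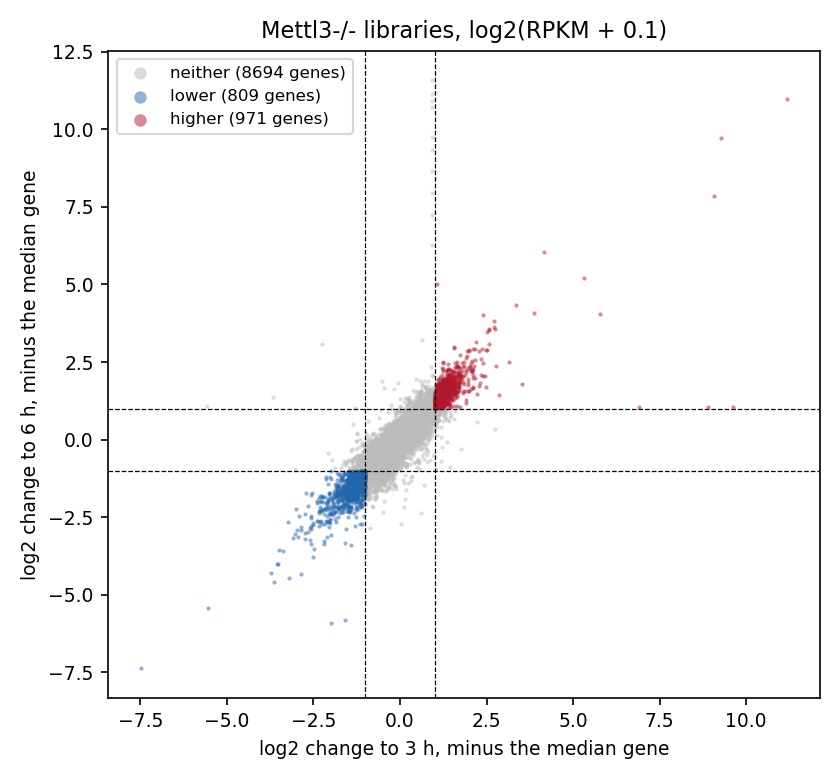
Each point is 1 of 10474 genes in the Mettl3-/- libraries, with its log2 change of RPKM (plus 0.1) from 0 h to 3 h on the x axis and from 0 h to 6 h on the y axis, both minus the change of the median gene. The dashed lines mark 2-fold, the 809 lower genes lie in the lower left corner and the 971 higher genes in the upper right corner, and both axes share the 0 h library.

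With 1 library a time there is no test within KO cells. The WT course shares no library with the KO course. By the same rule 892 genes were lower (8.52%) and 984 higher (9.39%) in WT cells, 622 genes were lower in both cultures (76.9% of the KO list and 69.7% of the WT list) and 748 were higher in both (77.0% and 76.0%). No gene was lower in KO and higher in WT cells, and 1 gene, the microRNA gene Mir692-3, was higher in KO and lower in WT cells. A limma fit over the 6 libraries, with time and culture as terms, tested the change common to both cultures. At 6 h it called 3571 genes lower (34.1%) and 3767 higher (36.0%) than the median gene at a Benjamini-Hochberg adjusted p under 0.05, and at 3 h it called 3305 (31.6%) and 3475 (33.2%). With the spike-in scale in place of the centring it called 10215 lower and 10 higher at 6 h, and 10135 and 5 at 3 h. Of the KO calls, 795 of 809 lower and 945 of 971 higher genes had such an adjusted p at both times in the same direction. The KO values enter this fit, so it is no separate support for them, and whether a gene decayed differently in KO and WT cells was not tested, since no library is left to estimate the error of that difference.

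Immediate-early transcription factors, which cells induce soon after a stimulus, had the lowest median at 6 h among the gene lists examined. Of 34 tested, 21 were lower (7.72% of all genes) and 0 higher, with a median change of -1.41 at 3 h and -1.59 at 6 h, and the WT median was -1.39 at 6 h with 17 lower. Klf2, a zinc finger factor that restrains the activation of myeloid cells, stood at 34.2, 1.84 and 0.647 RPKM at 0, 3 and 6 h. Its relative change was -3.21 and -4.47 in KO cells, and -4.43 at 6 h in WT cells, and limma gave -4.45 ± 0.24 (SE) over both cultures with an adjusted p of 9.5e-06. Fos, a subunit of the AP-1 factor, was at 16.9, 0.662 and 0.411 RPKM. Id2, an inhibitor of helix-loop-helix factors needed for dendritic cell development, was at 843, 97.0 and 39.1 RPKM and so was also lower at 6 h than at 3 h. Junb (421, 65.8 and 62.8 RPKM) and Cebpb (247, 30.8 and 29.8 RPKM) by contrast held nearly the same RPKM at both times of treatment. The list was not uniform. Batf3, a factor of the conventional dendritic cell lineage, was at 152, 88.1 and 95.9 RPKM, a relative change of 0.39 at 6 h, and Mafg was at 45.9, 35.1 and 32.1 RPKM.

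**Figure D2:**
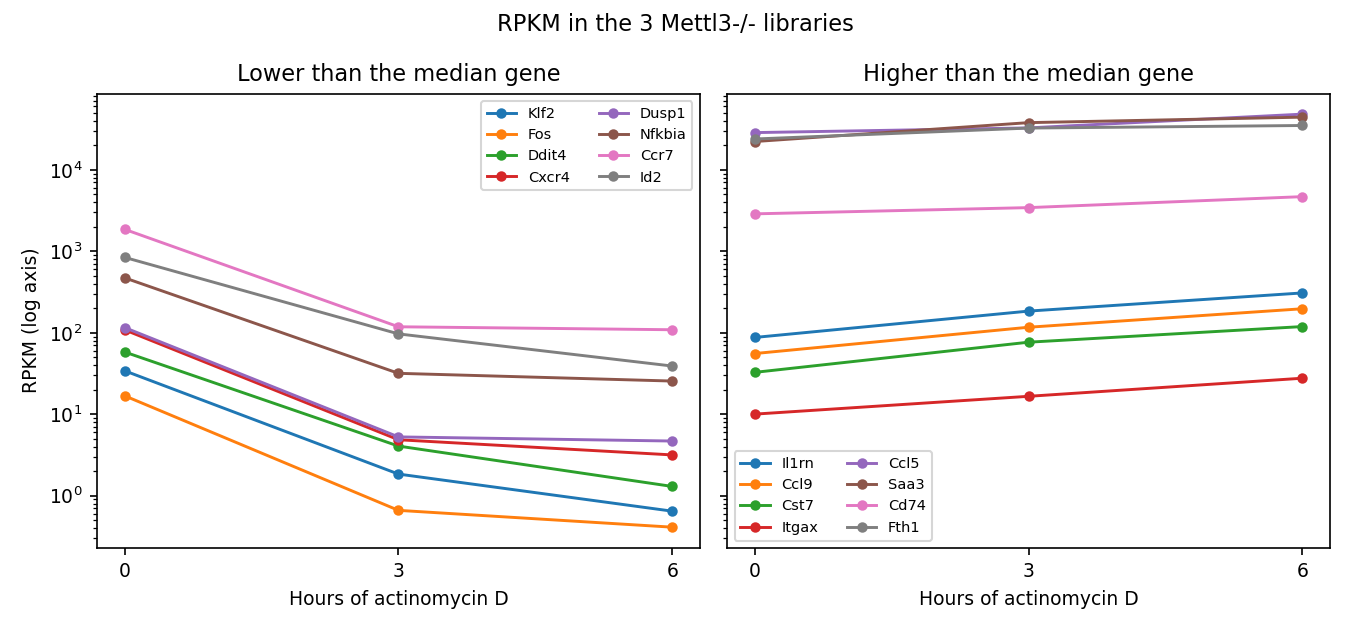
RPKM (log axis) of 8 genes lower and 8 genes higher than the median gene at 0, 3 and 6 h of actinomycin D in the Mettl3-/- culture, with 1 point per library. Lines of the lower genes drop mainly before 3 h (Ccr7 to 119 RPKM, Fos to 0.662 RPKM), whereas lines of the higher genes climb at both times (Il1rn to 309 RPKM). RPKM is a share of the reads, so a climb can arise without a gain in amount.

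Some of the inhibitors that switch LPS signalling off were also lower, against 7.72% of all genes. Among dual-specificity phosphatases, several of which inactivate MAP kinases, 8 of 14 were lower and 1 higher. The list median was -1.16 at 6 h, and -0.66 with the filter set at a mean of at least 5 RPKM. Dusp1 stood at 116, 5.27 and 4.69 RPKM, a relative change of -3.50 at 3 h and -3.55 at 6 h, and Dusp5 at 141, 13.2 and 5.89 RPKM. The exception was Dusp28 (9.64, 13.4 and 14.8 RPKM), the single higher member. Of the inhibitors of NF-κB, 3 of 13 were lower and 0 higher, and these 3 were Nfkbia, Tnfaip3 and Bcl3. The other 10 passed in neither direction, and the list median was -0.72 at 6 h. Nfkbia, which encodes the inhibitor IκBα, stood at 473, 31.8 and 25.6 RPKM and had a relative change of -3.15 at 6 h in KO cells and -3.09 in WT cells. Tnfaip3, the ubiquitin editor A20, stood at 42.7, 3.66 and 3.62 RPKM. Within the SOCS family of cytokine signalling inhibitors Socs1, Socs3 and Socs6 were lower, 3 of 8, and Socs2 was at the median gene with 181, 75.5 and 93.1 RPKM. The SOCS median was -0.53 at 6 h, against -1.59 for the immediate-early list. The transcripts of proteins that themselves bind AU-rich or stem-loop elements were lower in 5 of 14 cases. Zfp36, which encodes the AU-rich element binding protein tristetraprolin, led these with 526, 35.2 and 33.7 RPKM, followed by Zfp36l2, Arid5a, Zc3h12d and Zfp36l1.

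Tnf, the cytokine whose message is the classical target of tristetraprolin, stood at 51.2, 5.43 and 6.23 RPKM, a relative change of -2.28 at 3 h and -1.97 at 6 h. The nonamer core of AU-rich elements, read here as TTATTTATT in the DNA strand that matches the mRNA, was found in the 3′ UTR of Fos, Dusp1, Nfkbia, Zfp36 and Tnf. One site of each is shown, because these are well-known unstable transcripts that were lower in KO cells, with the nonamer in capitals (transcripts of GENCODE vM21, GRCm38).
Fos, chr12:85477103-85477132, plus strand: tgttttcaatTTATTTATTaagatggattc
Dusp1, chr17:26506158-26506187, minus strand: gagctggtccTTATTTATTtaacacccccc
Nfkbia, chr12:55489607-55489636, minus strand: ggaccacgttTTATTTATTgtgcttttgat
Zfp36, chr7:28376950-28376979, minus strand: tatgacgactTTATTTATTgtattaagatt
Tnf, chr17:35199688-35199717, minus strand: tttgcacttaTTATTTATTatttatttatt
In Tnf the nonamer occurred 5 times, with overlapping copies, and in Dusp1 2 times. Of the 15 genes with the lowest values at 6 h, only Fos and Dusp1 held the nonamer in the 3′ UTR, and Klf2, Ddit4, Cxcr4 and Id2 held none.

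Chemokine receptors were mostly on the lower side, whereas co-stimulatory molecules lay on both sides of the median gene. Of 9 chemokine receptors, 5 were lower and 0 higher, with a median of -1.48 at 3 h and -1.56 at 6 h. Ccr7, the receptor that leads mature dendritic cells to lymph nodes, was among the abundant transcripts of the untreated cells with 1863 RPKM and was at 119 and 109 RPKM at 3 h and 6 h. It was the only gene above 1000 RPKM at 0 h that was lower. Cxcr4, the receptor for Cxcl12, stood at 109, 4.87 and 3.17 RPKM, a relative change of -4.005 at 6 h, and Cxcr2, Ccrl2 and Cxcr5 were lower as well. Cd83, a marker of dendritic cell maturation, was at 323, 26.8 and 19.9 RPKM, and Cd70 at 6.25, 1.06 and 0.81 RPKM, while the other 11 of 13 co-stimulatory and checkpoint genes passed in neither direction and the median of that list was 0.033 at 6 h. Cd80 (75.4, 32.8 and 37.1 RPKM) and Cd86 (79.5, 40.8 and 52.8 RPKM), the ligands of CD28, remained near the median gene. Clec2d, a lectin-like ligand of natural killer cell receptors, stood at 221, 8.63 and 5.29 RPKM and was the single lower member of a list in which 15 of 19 genes were higher.

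Targets of p53 were mostly on the lower side, and genes of the stress responses went both ways. Of 23 p53 targets, 10 were lower and 0 higher, with a median of -1.10 at 3 h and -0.97 at 6 h. Ddit4, an inhibitor of mTORC1 signalling, stood at 58.1, 4.07 and 1.30 RPKM and Sesn2 at 27.9, 4.00 and 2.05 RPKM, whereas Bax, the effector of apoptosis, was at 219, 139 and 121 RPKM (relative change 0.20 at 6 h). In the stress and unfolded protein response list 6 of 19 genes were lower, led by Sesn2, Ppp1r15a and Herpud1, and 4 were higher, among them Creld2, Hsp90b1 and Sdf2l1, which encode endoplasmic reticulum proteins, and the list median was -0.15 at 6 h. Of 15 heat shock chaperones 4 were lower and 2 higher, with a median of -0.052 at 6 h. In cholesterol synthesis and uptake 4 of 23 genes were lower and 1 higher, and the lower ones included the enzymes Hmgcs1 (31.1, 4.26 and 2.85 RPKM) and Sqle (13.8, 1.90 and 1.41 RPKM). Nfe2l2, which encodes the antioxidant factor NRF2, was lower at 91.9, 9.38 and 6.31 RPKM, while 11 of the 26 genes of the NRF2 list were higher, with Prdx1 at 1215, 1900.1 and 2077 RPKM.

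Chemokines stood mostly on the other side. Of 11 CC chemokines 5 were higher (9.27% of all genes) and 1 lower, with a median of 0.83 at 3 h and 1.63 at 6 h, and of 11 CXC chemokines 6 were higher and 1 lower, with a median of 1.29 and 1.61. Ccl5, the most abundant gene in the untreated cells, stood at 28649, 32731 and 48272 RPKM, and kept 54.0% of its spike-in scaled amount at 6 h. The whole CC list held 4.76% of the gene RPKM at 0 h and 7.46% at 6 h. Ccl9 stood at 55.6, 117 and 197 RPKM, a relative change of 2.01 at 3 h and 2.88 at 6 h, and Ccl17, a ligand of Ccr4, at 104, 121 and 203 RPKM. The lower members were Ccl4 (79.8, 14.4 and 10.2 RPKM) and Cxcl10 (89.8, 18 and 11.5 RPKM), at relative changes of -1.91 and -1.90 at 6 h. Il1rn, the secreted antagonist of the interleukin-1 receptor, was at 87.7, 185 and 309 RPKM, and its limma change over both cultures was 2.6 ± 0.12 (SE) with an adjusted p of 8.4e-06. The list of proinflammatory cytokines, with 19 genes tested, also holds the antagonist Il1rn. In this list Il1rn, Il1a and Ebi3 were higher and Tnf and Osm were lower, and Il12b (70.7, 28.6 and 40.5 RPKM) passed in neither direction. The list median was -0.13 at 3 h and 0.47 at 6 h.

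Antigen presentation and recognition genes outlasted the median gene. Of 12 genes of MHC class II presentation 9 were higher and 0 lower, with a median of 1.19 at 3 h and 1.64 at 6 h. H2-Ab1 stood at 792, 1131 and 1351 RPKM and Cd74, the invariant chain, at 2884, 3439 and 4690 RPKM, whereas their transactivator Ciita was at 9.79, 4.31 and 5.80 RPKM and passed in neither direction. In MHC class I presentation 4 of 20 genes were higher and 0 lower, among them Calr and Pdia3, chaperones of the peptide loading complex. Of 19 Fcγ receptors and C-type lectins 15 were higher, with Fcer1g, the common signalling chain, at 1687, 2681 and 3054 RPKM, and of 17 macrophage markers 12 were higher. Marco, a scavenger receptor, stood at 388, 831 and 962 RPKM and Apoe at 322, 516 and 641 RPKM, and 1 member of the macrophage list was lower. The dendritic cell marker Itgax, which encodes CD11c, stood at 10.0, 16.6 and 27.7 RPKM, a relative change of 2.51 at 6 h.

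Transcripts for cytosolic ribosomes and for oxidative phosphorylation stood mostly above the median gene, though the median cytosolic ribosomal protein gene kept 52.2% of its 0 h amount at 6 h on the spike-in scale. Of 83 cytosolic ribosomal protein genes 78 were higher and 0 lower, with a median of 1.23 at 3 h and 1.76 at 6 h, and 78 were higher in WT cells too, at a median of 2.07. Their share of the gene RPKM was 13.0% at 0 h and 20.7% at 6 h. Rps29 stood at 3176, 4300 and 5998 RPKM. The 5 that were not higher included Rps27l, a p53 target related to Rps27 (934, 381 and 224 RPKM). Rps27 had the largest relative change of the list, 5.02 at 6 h, but shares its reads with the nearly identical Rps27rt (4137, 4695 and 6428 RPKM) and is uncertain, and the list median was 1.75 without it. Mitochondrial ribosomal protein genes lay closer to the median gene. Of 77 tested, 9 were higher (11.7%, against 9.27% of all genes) and 1 lower, with a median of 0.25 at 6 h. Of 79 nuclear genes of oxidative phosphorylation 35 were higher and 0 lower, and of 56 lysosomal genes 18 were higher and 0 lower, with Ctsb, a cysteine protease, at 412, 635 and 751 RPKM. Fth1 (23911, 32573 and 35033 RPKM) and Ftl1 (15092, 18797 and 22216 RPKM), the chains of the iron store ferritin, were higher, and the iron exporter Slc40a1 (7.03, 0.52 and 0.263 RPKM) was lower. Among the genes above 1000 RPKM at 0 h, 72 of 91 were higher and 1 lower, against 337 higher and 435 lower of 5146 genes between 10 and 100 RPKM. Over all 10474 genes the level at 0 h and the relative change at 6 h were nearly unrelated (Spearman's rho of 0.061 across genes, which share the 0 h library). Of the 80 genes under 1 RPKM at 0 h, 62 were higher and 0 lower, but these passed the filter only through their later libraries.

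No gene of the proteasome or of the splicing factors was called by the rule used here, which needs 2-fold at both times. Of 33 constitutive proteasome genes 0 were lower and 0 higher, and the same held for 43 SR and hnRNP splicing factors, with medians at 6 h of 0.16 and -0.14. At 6 h alone the members ran from -1.14 to 0.92 in the proteasome and from -1.38 to 0.85 in the splicing factors. For the proteasome limma called 9 members lower and 13 higher at 6 h, and for the splicing factors 20 and 15. Glycolysis enzymes had a median of 0.79 at 3 h and 0.74 at 6 h, and of these Gapdh (1530, 1749 and 1995 RPKM), Pkm, Pgk1, Gpi1 and Hk3 were higher and Pfkfb3 was lower, 5 and 1 of 18. Among 199 zinc finger genes of the Zfp group 20 were lower and 3 higher, against 7.72% and 9.27% of all genes. Actb, often used as a reference gene, stood at 8876, 3734 and 2035 RPKM, a relative change of -0.31 at 3 h and -1.07 at 6 h, and is thus a gene that was lost faster than the median by 6 h.

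**Figure D3:**
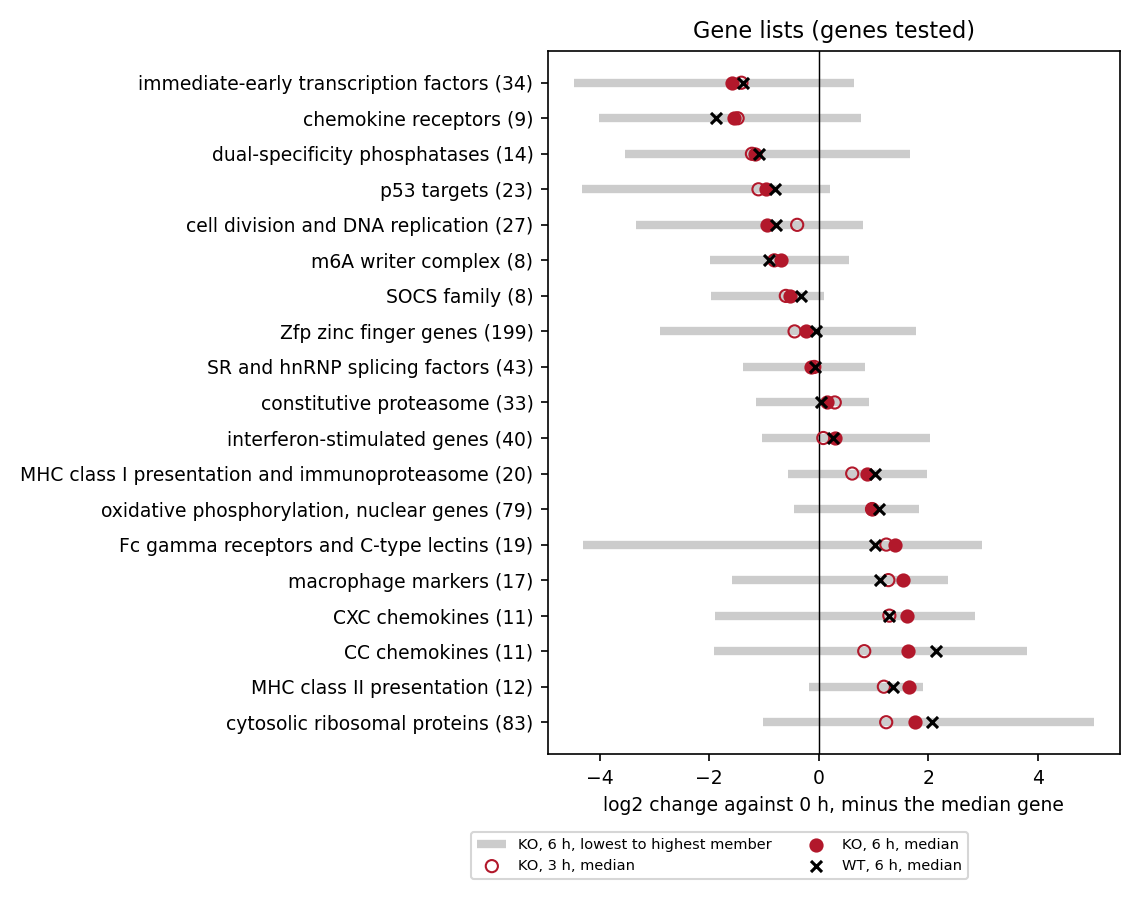
Median log2 change from 0 h, minus the median gene, of 19 gene lists in the Mettl3-/- libraries at 3 h (open circles) and 6 h (filled circles) and in the WT libraries at 6 h (crosses), with the number of genes tested in brackets. Grey bars span the lowest to the highest member at 6 h in KO cells, and the medians run from -1.59 for immediate-early transcription factors to 1.76 for cytosolic ribosomal proteins.

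By the 2-fold rule at both times, the transcripts of the m6A machinery were called lower about as often as all genes (7.72%). The limma fit over both cultures called them lower more often. At 6 h it called 6 of 8 writers (75%) and 6 of 11 readers and erasers (54.5%) lower, against 34.1% of all genes. It called 1 writer and 2 readers or erasers higher. By the 2-fold rule 1 of 8 tested members of the writer complex was lower (12.5%) and 0 higher. The median was -0.81 at 3 h and -0.69 at 6 h in KO cells, with -0.91 at 6 h in WT cells. Cbll1, a ubiquitin ligase of the complex, was the lower one with 6.44, 1.18 and 0.697 RPKM. Mettl14, the partner of Mettl3, stood at 4.93, 1.03 and 1.41 RPKM and Wtap, the adaptor, at 40.6, 13.5 and 12.1 RPKM. Mettl3 had a relative change of 0.28 at 6 h in KO cells and -0.41 in WT cells, values that lie on different sides of the median gene. Of 11 readers and erasers 1 was lower by that rule (9.09%), namely Ythdf1 at 19.97, 5.02 and 3.86 RPKM. Ythdf2 (23.8, 6.39 and 3.62 RPKM) and the eraser Alkbh5 (22.2, 6.20 and 3.48 RPKM) passed 2-fold at 6 h only.

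Between 3 h and 6 h, 120 genes (1.15%) lost a further 2-fold or more against the median gene and 78 (0.745%) gained as much. The named genes with the largest further loss were Retnlg, Ltf, Ngp, Olfm4, Cd177 and Stfa2, all known from neutrophils. Ngp, a granule protein, stood at 844, 475 and 90.6 RPKM in KO cells and at 225, 125 and 39.3 RPKM in WT cells. Ltf, lactoferrin, stood at 165, 88.4 and 12.03 RPKM in KO cells and at 36.4, 20.3 and 4.69 RPKM in WT cells. S100a8, a subunit of calprotectin, was at 4991, 2671 and 1233 RPKM in KO cells, against 2238, 1885 and 1539 RPKM in WT cells. The medians of the 17 neutrophil markers tested were 0.43 at 3 h and -0.72 at 6 h in KO cells and 0.61 at 6 h in WT cells, and their summed level was 15439 RPKM in KO and 8019 RPKM in WT cells at 0 h. By the 2-fold rule 2 of these 17 genes were lower and 2 were higher in KO cells. The limma fit over both cultures called 5 of them lower and 5 higher at 6 h. The higher ones by the 2-fold rule were Lcn2 and Chil3, which macrophages also express, and which cells their reads came from was not tested. Ly6g was not among the genes read. In bulk RNA, fewer cells of a type and less RNA per cell cannot be told apart. Without the neutrophil markers 806 genes were lower in place of 809. Retnlg differed between the cultures, with a change from 3 h to 6 h of -4.20 in KO and 0.95 in WT cells. In KO cells Retnlg stood at 26.3, 4.45 and 0.128 RPKM. Its 6 h value lay close to the 0.1 RPKM added before the logarithm, so the size of that KO change is uncertain. The part of neutrophils in the other results was not tested.

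Of the 6 genes named for their gain between 3 h and 6 h, 4 are described here, and the others were Rps27 and Pdzk1ip1. Il6, a proinflammatory cytokine, stood at 75.9, 20.1 and 42.7 RPKM in KO cells and at 134, 44.4 and 69.4 RPKM in WT cells, lower at 3 h than at 6 h in both. Map3k8, the kinase TPL2, followed the same course with 16.6, 3.58 and 7.70 RPKM in KO cells and 15.1, 3.29 and 8.31 RPKM in WT cells. Cxcl2, a ligand of Cxcr2, was at 32.8, 28.2 and 52.8 RPKM in KO cells and at 115, 120 and 197 RPKM in WT cells. Pde7a, a phosphodiesterase, was at 6.37, 3.24 and 6.13 RPKM in KO cells and at 6.84, 3.78 and 6.46 RPKM in WT cells. All 4 genes had a higher RPKM at 6 h than at 3 h in both cultures. On the spike-in scale all 4 were higher at 6 h in KO cells, as were most genes, but in WT cells only Map3k8 was (10.7% of 0 h at 6 h and 8.02% at 3 h), and Il6 stood at 9.99% at 6 h and 11.9% at 3 h.

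**Figure D4:**
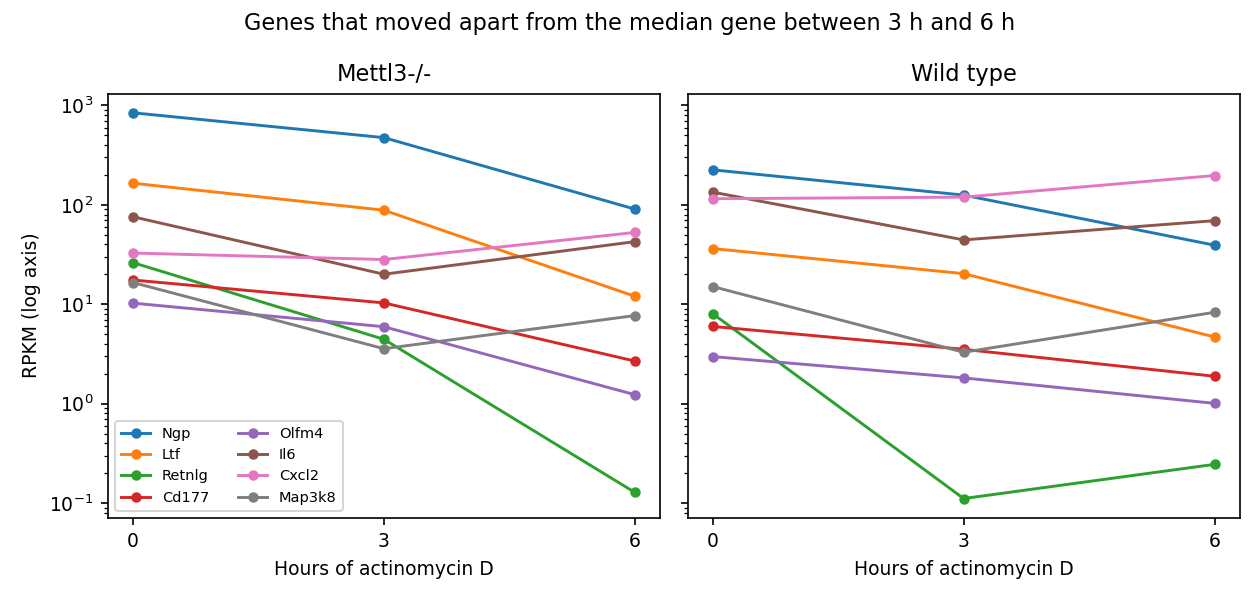
RPKM (log axis) of 5 neutrophil genes and of Il6, Cxcl2 and Map3k8 at 0, 3 and 6 h of actinomycin D, with Mettl3-/- libraries on the left and WT libraries on the right. Ngp and Ltf stand lower at 6 h than at 3 h (Ngp at 90.6 RPKM in KO and 39.3 RPKM in WT cells) while the RPKM of Il6 and Map3k8 is higher at 6 h than at 3 h in both cultures.

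Lower and higher genes differed in the length of their transcripts, a feature that did not enter the calls apart from its place in RPKM. For 9757 of the 10474 genes a coding transcript was found in GENCODE vM21 and the one with the longest coding sequence was read. The median 3′ UTR was 1225 bases long for the lower genes, 338 for the higher genes and 949 for the others, and the median coding sequence 1542, 666 and 1383 bases. The lengths did not change evenly with the loss: the 163 genes more than 4-fold below the median gene at 6 h had a median 3′ UTR of 920 bases, shorter than the 1223 bases of the 3621 genes up to 2-fold below it.

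**Figure D5:**
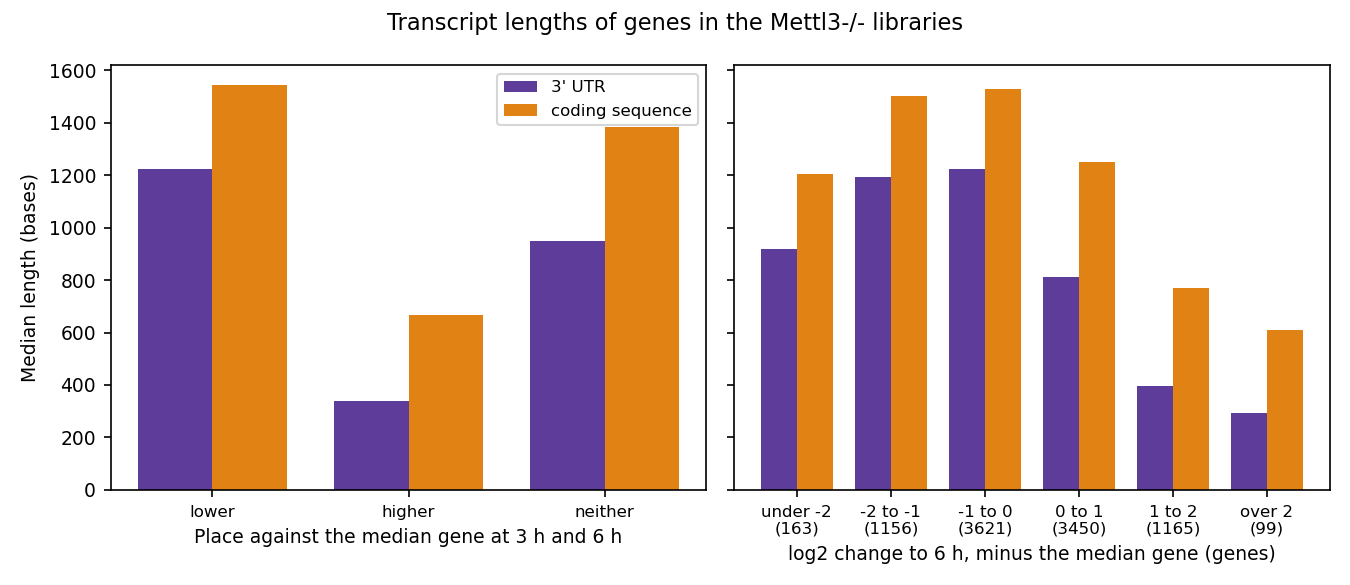
Median length in bases of the 3′ UTR and of the coding sequence of genes lower, higher or neither against the median gene in the Mettl3-/- libraries (left) and by log2 change to 6 h with the number of genes in brackets (right). Genes that outlasted the median gene have the shorter 3′ UTR and coding sequence, down to 293 and 609 bases in the 99 genes more than 4-fold above it.

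To compare sequence at equal length, the last 500 bases were searched in the 6523 genes whose 3′ UTR reached that length, on the strand of the mRNA. The AU-rich heptamer TATTTAT was present in 19.1% of the lower genes (122 of 638), 9.37% of the higher genes (31 of 331) and 14.6% of all. The nonamer TTATTTATT, which contains the heptamer, was present in 5.02% of the lower and 2.42% of the higher genes, against 3.42% of all. These shares did not change evenly with the loss at 6 h. In genes more than 4-fold below the median gene the heptamer was present in 24.4% (31 of 127) and the nonamer in 6.30%. In those more than 4-fold above it they were present in 18.5% (5 of 27) and 7.41%. TGTANATA, the element bound by Pumilio proteins, was present in 20.2% of the lower and 6.04% of the higher genes, against 13.8% of all. GGACT, the most common form of the m6A consensus, was present in 37.9% of the lower, 38.1% of the higher and 36.1% of all genes, while in the first 500 bases of the same 3′ UTRs it was present in 47.0% of the lower, 40.5% of the higher and 42.2% of all genes. The heptamer was present in 12.9%, 9.06% and 11.6% of the lower, higher and all genes in that first stretch. In the last 500 bases the lower genes also had more A and T (median 59.0%, against 55.4% in the higher and 57.8% in the other genes). Within classes of equal A and T content of those last bases, the heptamer remained more frequent in lower than in higher genes up to 65% (4 classes). Some of these shares rest on few genes. Under 50% it was present in 9.28% of lower genes, 3.53% of higher genes (3 of 85) and 8.72% of the others. Above 65% it was present in 24.1% of lower and 27.6% of higher genes. These shares are descriptions of the letters in these stretches, with no test.

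Genes close to the threshold show how much the counts depend on it. Just inside the lower group lay Ccdc32 (-1.001 at 3 h and -1.78 at 6 h) and Ptpn2 (-1.009 and -1.002), and just outside it Ticam1 (-0.996 and -1.24) and Flcn (-1.101 and -0.9995). Just inside the higher group lay Ndufa10 (1.0002 and 1.17) and Pgls (1.0013 and 1.29), and just outside it Lgals1 (0.9986 and 1.29) and H2-D1 (0.9971 and 1.37). The largest relative changes among the named genes were those of Hist1h2ao and Retnlg on the lower side, and of Nrgn and Lars2 besides Rps27 on the higher side. Histone transcripts lack a poly(A) tail as a rule, and part of the Lars2 transcript resembles mitochondrial ribosomal RNA, so their values in poly(A) RNA are uncertain. The value of Retnlg is uncertain as well, since it stood at 0.128 RPKM at 6 h, close to the 0.1 RPKM added before the logarithm. Spike-in scaled amounts above those of 0 h were read at 6 h for 43 genes in KO cells (0.411%), among them Lars2 (39.6, 138 and 225 RPKM, 182% of 0 h), Cst7 (32.7, 76.7 and 119 RPKM, 117%), Ccl9 (114%) and Il1rn (113%).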

How the data were processed

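Poly(A) RNA of 6 libraries was sequenced, 1 per culture and time, with ERCC transcripts added in proportion to total RNA. Per the submitters' processing notes, reads were aligned to mm10 with TopHat2 2.0.14 after bcl2fastq, and Cuffnorm was used. No annotation or strand setting was stated. The deposited values were RPKM plus 1, multiplied by the authors with a factor for each library. RPKM was recovered by dividing by the column minimum and subtracting 1. The depth is unknown. The authors' 2 lifetime columns, which hold their own decay results, were not used.

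Changes were log2(RPKM + 0.1) against 0 h minus the median gene, over genes averaging 1 RPKM or more in the KO libraries. A call needed 2-fold at both times, and fold changes of low genes are understated by the pseudocount. The spike-in factor was the median ratio of 80 ERCC transcripts. limma 3.58.1 (R 4.3.3) fitted time and culture over 6 libraries, with Benjamini-Hochberg adjustment over 10474 genes. With these libraries its p-values measure the spread between 2 cultures only. Scripts ran in Python 3.11.15 with numpy 2.4.6, pandas 2.3.3 and scipy 1.17.1, and were tested on simulated data. Genes were named as the 15 lowest and 15 highest, those with the largest change between 3 h and 6 h, the ends of each list and its members past the 2-fold rule, and genes next to the threshold. Others named in the text were chosen after their values were seen. The members and gene lists were chosen with earlier results of these data known. Alternatives covered the pseudocount, the filter, the scaling, the fold and leaving out a library. Some genes are not reported here.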

Additional observations from a re-analysis of the deposited data

Results flagged for a closer look

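The KO and WT courses moved in opposite directions between 3 h and 6 h on the spike-in scale. The scaled amount of the median gene at 6 h over that at 3 h was 0.31 in KO and -1.13 in WT cells (log2), and that of the summed gene RPKM was 0.61 in KO and -0.65 in WT cells. Marker lists of other cell types also differed in sign. The median change at 6 h, relative to the median gene, was -0.72 in KO and 0.61 in WT cells for neutrophil markers. It was 0.53 in KO and -0.85 in WT cells for markers of mast cells, basophils, erythroid cells and megakaryocytes. That list had 8 genes tested, of which 2 were lower and 4 higher in KO cells. Their KO values at 6 h ran from -2.34 to 2.61. Of the 18 genes listed, 10 were under 1 RPKM at 0 h in KO cells, so its median is uncertain. Each of these results rests on 1 library per culture and time, and the differences between the cultures were not tested.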

How the results depend on the processing

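The number of lower genes, 809, became 1694 with no filter on low values, 10118 on the spike-in scale, 4509 on RPKM as recovered, 4046 when centred on summed RPKM, 1908 at 1.5-fold and 76 at 4-fold. The number of higher genes, 971, became 634 with a pseudocount of 1 RPKM, 540 with a mean of at least 5 RPKM, 6 on the spike-in scale, 44 on RPKM as recovered, 49 when centred on summed RPKM, 2097 at 1.5-fold and 44 at 4-fold. Leaving out the 3 h or the 6 h library gave 1008 to 1390 lower and 1067 to 1485 higher genes. With summed ERCC as the scale the median gene kept 15.4% and the summed RPKM 26.9% at 3 h. With no scaling the median gene kept 52.3% at 3 h and 48.2% at 6 h, the summed RPKM 91.3% and 103%, and the median half-life was 3.26 h. Without 1 of the libraries that half-life was 0.997 to 2.22 h. Centring on summed RPKM turned the 6 h median of 24 of 55 lists and the 6 h value of 80 of 394 named genes, all of them positive before and negative after. These include oxidative phosphorylation (-0.14 in place of 0.96), lysosomal genes (-0.17 in place of 0.93), MHC class I (-0.21 in place of 0.89), NRF2 targets (-0.27 in place of 0.83), glycolysis (-0.36 in place of 0.74) and proinflammatory cytokines (-0.63 in place of 0.47). It also turned the spleen endothelial and fibroblast list (-0.042) and, among genes called by the 2-fold rule, Bad (-0.0035), Ebp (-0.019), Gatm (-0.084), Alox5ap (-0.089), Col1a2 (-0.042) and Cpq (-0.033). The causes were not tested. In limma 7338 genes passed at 6 h and 6780 at 3 h, and 10225 and 10140 on the spike-in scale. With no replicate block for the culture 5823 and 4963 passed, and leaving out a library gave 6021 to 7050 and 4760 to 7388. Within KO cells no paired analysis was possible because those values come from no test. Alternatives chosen after seeing the data gave 802 lower genes without small RNA genes and 806 without neutrophil markers. With 1 library per time and unknown depth, small differences between genes of low RPKM cannot be resolved.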
